A study of Canis lupus familiaris with 23 samples.

Results

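Primary canine osteosarcomas with the highest expression of matrix metalloproteinase 13 (MMP13) were compared with those with the lowest. The 15 tumors of the series were ranked by the MMP13 probe set with the highest mean over all 23 samples, and the groups were chosen by these values: the 5 highest tumors are called MMP13-high and the 5 lowest MMP13-low. The comparison therefore used 10 of 15 tumors and 10 of 23 samples, and the other 5 tumors lie between. MMP13 chose the groups, so its own values are given as a description without a test and it was left out of the analysis of the other genes.

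MMP13, or collagenase 3, is a secreted zinc protease that cleaves fibrillar collagens, type II collagen most efficiently, and the aggrecan of cartilage. In bone it is made by hypertrophic chondrocytes and by osteoblasts, where RUNX2 and AP-1 factors drive its promoter and parathyroid hormone induces it. It is made as an inactive precursor that MMP14, plasmin and other proteases activate, and tissue inhibitors of metalloproteinases (TIMPs) block it. Osteoclasts, which resorb bone, use cathepsin K and MMP9 instead.

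RNA expression was measured on Affymetrix canine genome arrays, 1 array a sample. The tumors were primary osteosarcomas of dogs, taken at surgery before any chemotherapy. The labels give the dogs no age, sex, tumor site or grade. The rest of the series served only for reference levels: 2 lines of canine osteosarcoma cells, and 6 normal samples, 2 from kidney, 2 from liver and 2 from lymph node. All tumors carry the same tissue and type in the labels, and each has its own title. The p-values measure the spread between these tumors only. The groups are defined by MMP13 alone. A tumor sample is a mixture of cells, so fewer cells of a type and less RNA per cell cannot be told apart. All expression values below are on the log2 scale, and differences are MMP13-high minus MMP13-low.

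MMP13 differed widely among the tumors. In the MMP13-high tumors it was 13.35 in tumor 6, 12.95 in tumor 15, 11.67 in tumor 9, 11.61 in tumor 3 and 11.01 in tumor 13. In the MMP13-low tumors it was 6.89 in tumor 12, 6.77 in tumor 14, 4.51 in tumor 1, 3.80 in tumor 5 and 3.68 in tumor 8. The difference of the group means was 6.98. In the 5 tumors between it was 10.62 in tumor 10, 9.96 in tumor 4, 9.47 in tumor 7, 9.14 in tumor 11 and 8.57 in tumor 2. The step from the last MMP13-high tumor (11.01) to the first tumor between (10.62) was small, whereas the step from the last of these (8.57) to the first MMP13-low tumor (6.89) was larger. The 6 normal samples lay between 3.85 and 4.37, so that tumors 5 and 8 were below the lowest normal organ. The cell lines were at 7.09 and 3.95. On the arrays of the MMP13-high tumors MMP13 was brighter than 98.6% to 99.9% of the other probe sets, and on those of the MMP13-low tumors than 13.9% to 77.6%.

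Control probe sets on the arrays did not divide evenly between the groups. The 5′ index is the mean difference between the 3′ and the 5′ probe sets of actin and Gapdh, and a high index means that little of the 5′ end of the transcript was detected. With a border at 1.5, 8 tumors had full and 7 had low 5′ signal. The MMP13-high tumors all had full 5′ signal, with an index of 0.73 in tumor 6, 0.74 in tumor 15, -0.14 in tumor 9, -0.22 in tumor 3 and -0.31 in tumor 13. Among the MMP13-low tumors 4 of 5 had low 5′ signal, with an index of 3.43 in tumor 12, 3.15 in tumor 14, 4.70 in tumor 1 and 3.55 in tumor 8, and tumor 5 had full 5′ signal (-0.32). The difference in the mean index was -2.74 (exact permutation test, two-sided, p = 0.0476, with 0.00794 the smallest p that 252 arrangements allow). The spiked control BioB differed by -0.88 (exact permutation p = 0.0556) and the spiked control Dap by 1.01 (exact permutation p = 0.365). Of the tumors between, 10, 4 and 7 had low 5′ signal (3.23 to 4.08) and 11 and 2 had full 5′ signal (0.68 to 0.80). Within this group the tumors with full 5′ signal were therefore those with the lower MMP13.

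**Figure D1:**
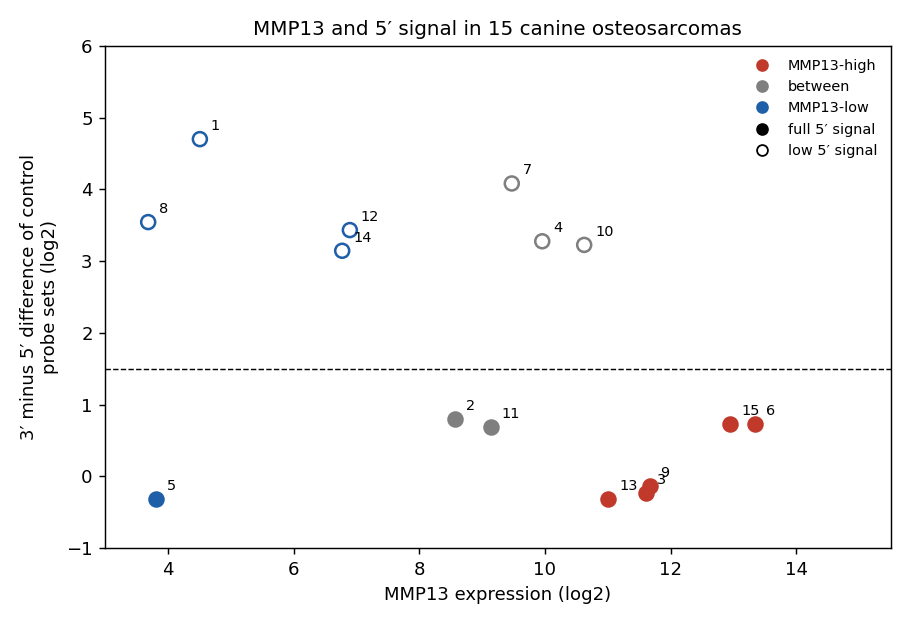
MMP13 expression (log2, x axis) against the 5′ index (3′ minus 5′ control signal, log2, y axis) in the 15 tumors, each point 1 tumor with its number and the dashed line the border at 1.5. The MMP13-high tumors all lie below the line, and tumor 5 is the single MMP13-low tumor there.

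Tumor 5 stood apart in another way. Of 29 measured skeletal muscle genes, 20 (69%) had their highest value of the 15 tumors in tumor 5, against 8.35% of all genes, and 17 were at least 4 above the median of the other tumors. The mean level of this list was 9.02 in tumor 5 and 4.97 to 5.81 in the other 14 tumors. Markers of bone matrix were lower there: COL1A1, a chain of type I collagen, was 9.58 in tumor 5 and 12.32 to 13.95 in the other 9 tumors compared. Values without tumor 5 are given beside many of the results, and without it the MMP13 groups are also the 5′ classes.

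In limma, 33 of 23835 probe sets were higher in MMP13-high tumors at an adjusted p under 0.05 (0.138%) and 0 were lower (0%). At an unadjusted p under 0.05, 1529 were higher and 955 lower. The values of 426 probe sets (1.79%) lay above those of every MMP13-low tumor in all MMP13-high tumors, and those of 156 (0.654%) lay below. The median difference of all probe sets was -0.03. With each gene represented by its brightest probe set, 12 of 6539 genes were higher (0.184%) and 0 lower, with 532 higher and 330 lower at an unadjusted p under 0.05. Of the 6539 differences 2910 were positive and 3629 negative. The 12 genes were GJA1, TMPO, P4HA1, YARS1, CCNG2, PCYT1A, ATE1, HNRNPUL2, KCNE3, PLEKHA1, TAF2 and DDX42. In each of them the groups did not overlap, which a choice by small p makes likely. Over all 6539 genes, 142 lay above every MMP13-low tumor in all MMP13-high tumors and 41 lay below.

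Values are listed for the MMP13-high tumors in the order 6, 15, 9, 3 and 13 and for the MMP13-low tumors in the order 12, 14, 1, 5 and 8. GJA1 encodes connexin 43, the main gap junction protein of osteoblasts and osteocytes. It was 8.94, 9.43, 10.14, 10.10 and 9.28 in the MMP13-high tumors and 5.82, 6.01, 5.23, 7.63 and 6.04 in the MMP13-low tumors. The difference was 3.43 ± 0.42 (SE, adjusted p = 0.0239). Tumor 5, with full 5′ signal, was the highest of the MMP13-low tumors. P4HA1 encodes a catalytic subunit of the prolyl hydroxylase that stabilizes the collagen triple helix. It was 6.74, 8.60, 6.91, 8.05 and 7.18 in the MMP13-high tumors and 4.52, 4.29, 4.03, 4.82 and 4.39 in the MMP13-low tumors, a difference of 3.09 ± 0.35 (adjusted p = 0.0227). The MMP13-low tumors lay close together, and tumor 5 was the highest of them here too. TMPO, which encodes lamina-associated proteins of the inner nuclear membrane, was 8.32, 6.63, 7.13, 8.12 and 6.69 against 3.26, 3.48, 4.38, 5.13 and 3.50. Its difference was 3.43 ± 0.45 (adjusted p = 0.0242), and tumor 5 was again the highest of the MMP13-low tumors.

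TAF2 encodes a subunit of the general transcription factor TFIID. It was 6.77, 6.50, 6.41, 6.39 and 6.54 in the MMP13-high tumors and 5.65, 5.57, 5.48, 5.52 and 5.43 in the MMP13-low tumors. This difference of 0.99 ± 0.09 was small but had the smallest adjusted p of the 12 genes (0.00912), with SDs of 0.15 and 0.08 in the 2 groups. CCNG2, an atypical cyclin linked to arrest of the cell cycle, was 6.38, 6.35, 6.10, 6.53 and 6.84 against 4.45, 4.48, 4.76, 5.50 and 4.48, a difference of 1.71 ± 0.22 (adjusted p = 0.0239). YARS1, the tyrosyl-tRNA synthetase of the cytoplasm, was 6.94, 7.18, 7.64, 8.35 and 7.87 against 5.48, 5.38, 5.47, 6.38 and 5.58, a difference of 1.94 ± 0.29 (adjusted p = 0.0374). In both genes tumor 5 was nearest to the MMP13-high tumors.

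The other 6 genes differed by 0.95 to 1.46. PCYT1A, the regulatory enzyme of phosphatidylcholine synthesis, had means of 5.33 ± 0.28 (SD, n = 5) and 3.88 ± 0.33. ATE1, which transfers arginine to protein ends, had means of 5.70 ± 0.15 and 4.36 ± 0.39, and HNRNPUL2, an RNA-binding nuclear protein, 6.93 ± 0.29 and 5.70 ± 0.17. KCNE3, a potassium channel beta subunit, had means of 6.39 ± 0.23 and 5.21 ± 0.24. PLEKHA1, an adaptor that binds membrane phosphoinositides, had means of 6.63 ± 0.15 and 5.61 ± 0.25, and DDX42, an RNA helicase of splicing, 6.92 ± 0.25 and 5.97 ± 0.16. The second probe sets of PCYT1A (-0.02), KCNE3 (-0.14) and PLEKHA1 (-0.09) showed no such difference, whereas those of DDX42 differed by 0.63 and 0.84. None of the 12 genes kept an adjusted p under 0.05 in every fit that left out 1 tumor. TAF2 lost it without tumor 13 or tumor 1 (adjusted p up to 0.0593), and the other 11 genes lost it in 5 to 8 of 10 such fits.

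**Figure D2:**
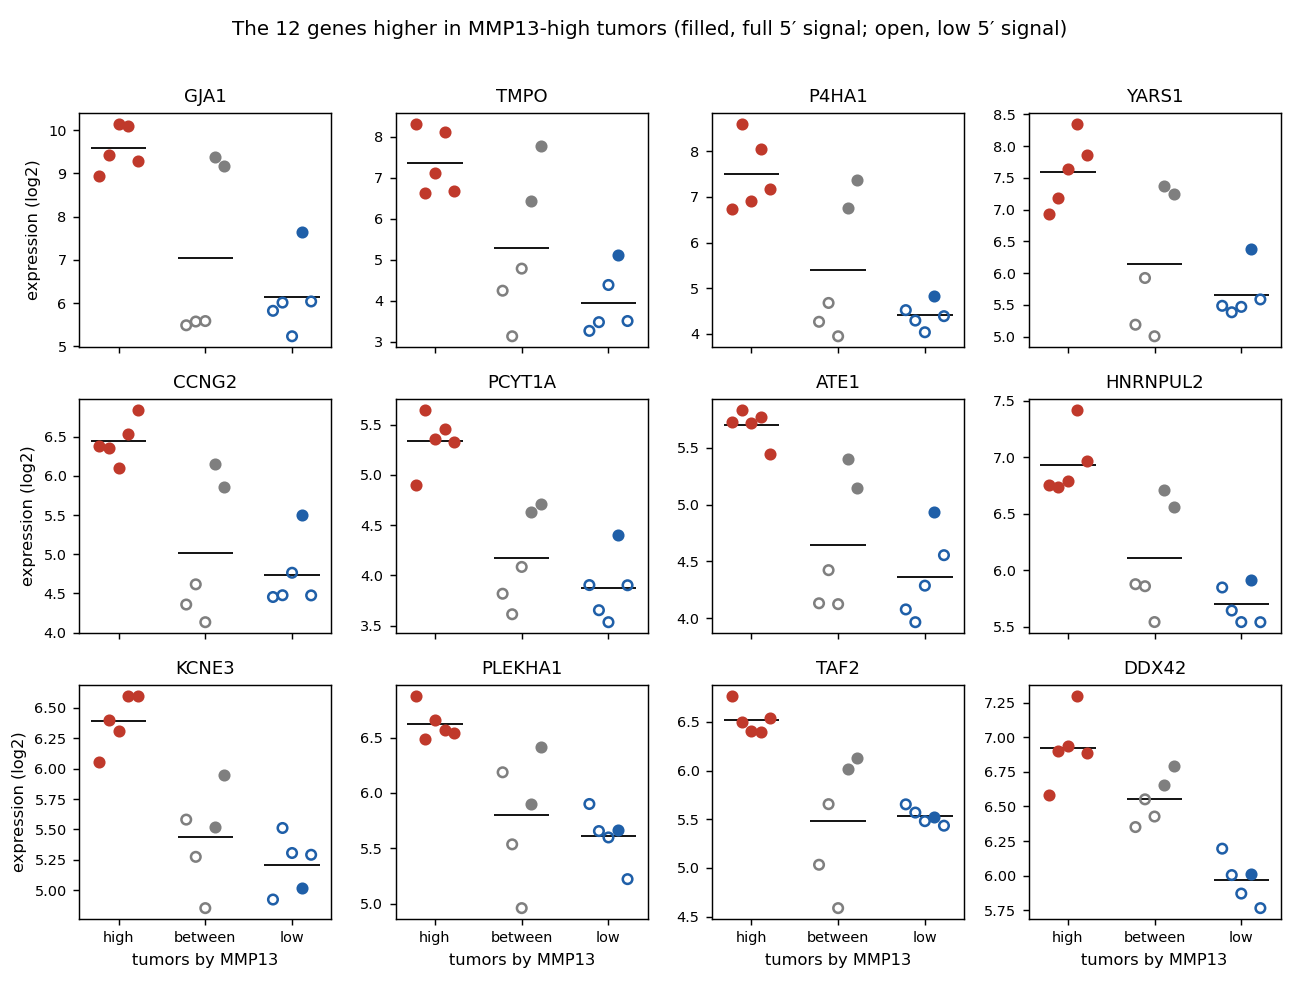
Expression (log2, y axis) of the 12 genes higher in MMP13-high tumors, 1 panel a gene, with each point a tumor, black lines the group means of 5 tumors, and filled and open points tumors with full and low 5′ signal. The tumors between split by 5′ signal in all panels but KCNE3 and PLEKHA1, with the filled points above the open ones, as for GJA1 (9.16 and 9.37 against 5.49 to 5.58).

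Of the 33 probe sets, 25 had 1 gene symbol and belonged to 23 genes, and 8 had none. For 11 of the 23 genes the probe set that was higher was not the gene's brightest. CTNNB1, which encodes beta-catenin of Wnt signalling and cell adhesion, differed by 2.59 ± 0.31 (adjusted p = 0.0239) by a probe set with a mean of 8.77 over the 10 tumors, and by 0.30 ± 0.14 (adjusted p = 0.52) by its brightest, with a mean of 11.7. ATP6AP1, an accessory subunit of the proton pump of lysosomes and osteoclasts, differed by 3.42 ± 0.32 (adjusted p = 0.00912) and 2.70 ± 0.28 (adjusted p = 0.0135) by 2 probe sets, and by 0.31 ± 0.27 (adjusted p = 0.784) by its brightest. The probe sets of these genes therefore disagreed. The brightest probe set had an unadjusted p under 0.05 in 2 of the 11 genes. One was PSAP, the precursor of lysosomal saposins (3.11 ± 0.44 by the probe set that passed, 1.90 ± 0.39 by the brightest, adjusted p = 0.0324 and 0.0873), and the other SND1, a nuclease of RNA silencing (2.41 ± 0.36 and 1.54 ± 0.26, adjusted p = 0.0415 and 0.0624). For the other 9 genes the difference of the brightest was -0.34 (RBFOX2) to 0.46 (CHD4).

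In the tumors between, which did not enter the comparison, those with full 5′ signal had the lower MMP13 (8.57 and 9.14 against 9.47 to 10.62). This is opposite to the 2 groups. The 5′ class and the order by MMP13 are the same split of these 5 tumors and cannot be told apart there. All 33 probe sets were higher on average in the 2 tumors with full 5′ signal than in the 3 with low 5′ signal, as were 40.6% of all probe sets. In 28 of them (84.8%) the 2 sets of tumors did not overlap, with the full 5′ signal higher, against 13.8% of all probe sets. The median difference was 1.27, against -0.05 for all probe sets. GJA1 was 9.37 and 9.16 in tumors 11 and 2 and 5.49, 5.57 and 5.58 in tumors 10, 4 and 7, and P4HA1 was 6.76 and 7.38 against 4.26, 4.68 and 3.95. In these genes the tumors with the lower MMP13 therefore had the higher values.

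The normal organs, with MMP13 at or below 4.37, included 1 sample with full and 1 with low 5′ signal of each organ. Of the 33 probe sets 28 (84.8%) were higher in the sample with full 5′ signal in all 3 organs, against 18.4% of all probe sets. The median difference was 1.33 in kidney, 0.75 in liver and 1.42 in lymph node, and for all probe sets -0.10, -0.04 and -0.03. YARS1 differed by 1.83, 2.15 and 2.85 and TMPO by 1.26, 0.49 and 3.51 in the 3 organs. GJA1 was an exception, with 0.33, -0.20 and 0.33. The part of 5′ signal in the group differences was not tested beyond these values and the fits with covariates.

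**Figure D3:**
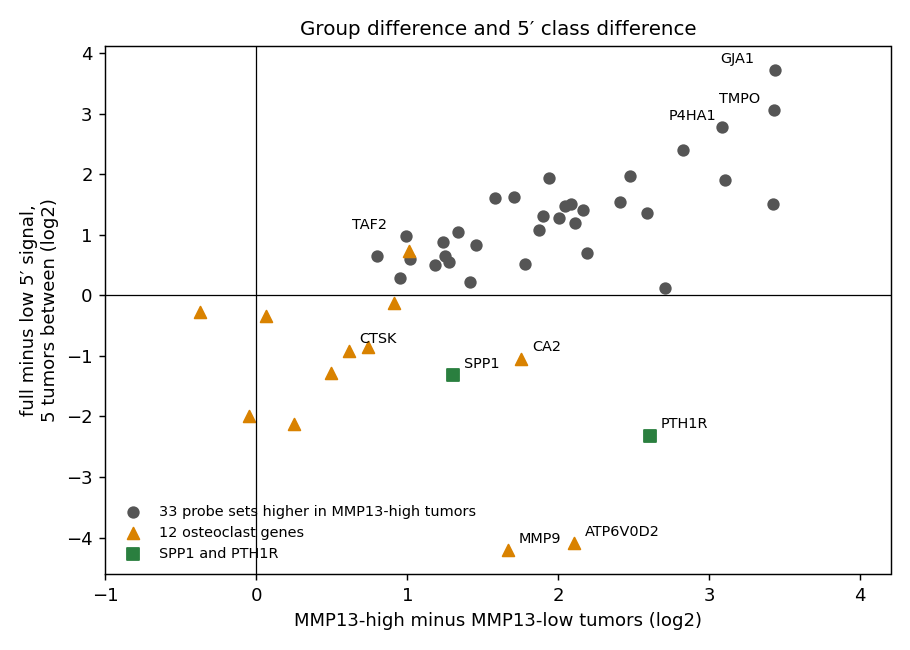
Difference between MMP13-high and MMP13-low tumors (log2, x axis) against the difference between full and low 5′ signal in the 5 tumors between (log2, y axis), each point a probe set. The 33 probe sets higher in MMP13-high tumors all lie above 0 on the y axis, whereas 11 of 12 osteoclast genes, SPP1 and PTH1R lie below it. In the 5 tumors between, those with full 5′ signal also had the lower MMP13.

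With the 5′ index as a covariate, 21 probe sets were higher and 224 lower, and 12 of the 21 were among the 33. Of the 12 genes 4 kept an adjusted p under 0.05: GJA1 with 2.12 ± 0.29 (adjusted p = 0.0179), TAF2 with 1.02 ± 0.15 (0.0195), KCNE3 with 1.26 ± 0.23 (0.0407) and P4HA1 with 2.79 ± 0.52 (0.0476). All 12 differences stayed positive, which the choice of these genes in the same tumors makes likely. With the 5′ class as a covariate in place of the index, 33 probe sets were higher and 412 lower, and 5 were shared with the 33. In that fit TAF2 (0.999 ± 0.17, adjusted p = 0.019) and KCNE3 (1.37 ± 0.25, adjusted p = 0.0286) passed. With the class in the fit, the group difference is that between the MMP13-high tumors and tumor 5, the only MMP13-low tumor with full 5′ signal. Of the genes that passed as lower, 17 of 81 with the index and 19 of 136 with the class were among the 29 skeletal muscle genes. When tumor 5 was left out of the fit with the index, 0 probe sets passed in either direction in limma, with 668 higher and 534 lower at an unadjusted p under 0.05. Without tumor 5 and with no covariate, 406 were higher and 54 lower, and there MMP13 group and 5′ class are the same split and cannot be told apart.

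The 5′ class could also be set beside MMP13 as a continuous measure over all 15 tumors. In that fit, chosen after the data were seen, 0 probe sets passed in either direction (837 with a positive and 985 with a negative slope at an unadjusted p under 0.05). All 33 slopes were positive, against 50.7% of all probe sets, with a median of 0.09 for each log2 unit of MMP13. The 33 were chosen by the difference between 10 of these 15 tumors, so that choice largely set the signs of their slopes. This holds within the 5′ classes too, since the tumors with full 5′ signal include all MMP13-high tumors and tumor 5. The shares of positive slopes are therefore a description and no separate support. Within the 8 tumors with full 5′ signal 33 of 33 slopes were positive (61.6% of all probe sets), and within the 7 with low 5′ signal 23 of 33 (40.5% of all). The slope of DDX42 was 0.09 ± 0.03 in the first and 0.10 ± 0.02 in the second. The slopes of P4HA1 were 0.28 ± 0.08 and 0.01 ± 0.04, and those of GJA1 0.19 ± 0.06 and -0.03 ± 0.04. Among the 7 tumors with low 5′ signal, in which MMP13 ranged from 3.68 to 10.62, GJA1 stayed within 5.23 to 6.04 and P4HA1 within 3.95 to 4.68.

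Proteases and their inhibitors gave differences that did not pass. Of 5 measured metalloproteinases other than MMP13, 0 passed in limma, and 1 was higher at an unadjusted p under 0.05 (532 of 6539 over all genes). The median difference was 1.67 (1.01 without tumor 5), against -0.04 over all genes (-0.06 without tumor 5). MMP14, a membrane protease that activates MMP13, was 6.73, 7.27, 8.40, 7.38 and 6.65 in the MMP13-high tumors and 5.43, 5.85, 5.44, 5.46 and 5.74 in the MMP13-low tumors. The difference was 1.70 ± 0.30 (adjusted p = 0.0646), and the groups did not overlap. Without tumor 5 it was 1.67 and passed (adjusted p = 0.0401). In the tumors between, MMP14 was 6.55 and 6.94 with full and 5.003 to 5.59 with low 5′ signal, so that these values split by 5′ class as those of GJA1 and P4HA1 did.

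MMP3, a stromelysin that acts on many matrix proteins, reached 12.16 in tumor 15 and 7.57 in tumor 3 and was 3.64 to 5.13 in the other MMP13-high tumors. In the MMP13-low tumors it was 7.81 in tumor 14 and 3.33 to 3.60 in the others. The difference was 2.13 ± 1.63 (adjusted p = 0.742), and the groups overlapped. MMP2, a gelatinase of stromal cells, differed by 0.97 ± 0.45 (adjusted p = 0.498). Of 8 measured protease inhibitors and members of the plasminogen system 0 passed, and the median was 0.12 (0.06 without tumor 5). TIMP1 differed by 0.51 ± 0.26 (adjusted p = 0.551) and TIMP3 by -0.13 ± 0.68 (adjusted p = 0.973), or by 0.15 without tumor 5. TFPI2, an inhibitor of serine proteases that also blocks metalloproteinases, lay within 11.21 to 11.65 in the MMP13-high tumors and was 10.51, 7.75, 9.98, 10.59 and 11.12 in the MMP13-low tumors (1.47 ± 0.54, adjusted p = 0.344). Its groups did not overlap, and tumors 14 and 8 were the farthest from and the nearest to the MMP13-high tumors. The 4 measured ADAM and ADAMTS proteases had a median of 0.42 (0.20 without tumor 5) and 0 passed.

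Of 8 measured transcription factors that act at the MMP13 promoter 0 passed, with a median of 0.57. RUNX2, the master factor of osteoblasts, was 4.49, 4.77, 5.42, 5.02 and 5.76 in the MMP13-high tumors and 4.63 to 4.74 in the MMP13-low tumors (0.42 ± 0.21, adjusted p = 0.563). The 3 highest values were in MMP13-high tumors, and tumor 6, with the most MMP13, had the lowest of all 10. FOS, the AP-1 subunit, is known to pair with JUN at the promoter. It differed by -1.36 ± 0.65 (adjusted p = 0.524), or by -0.82 without tumor 5. MEF2C, a factor of hypertrophic cartilage and osteocytes, was 8.95 to 10.92 in the MMP13-high tumors and 9.92, 6.34, 9.71, 9.09 and 6.14 in the MMP13-low tumors (1.62 ± 0.81, adjusted p = 0.549). Its 2 dimmer probe sets differed by 1.85 ± 0.48 (adjusted p = 0.162) and 2.40 ± 0.54 (adjusted p = 0.114) and did not pass either.

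Osteopontin and the parathyroid hormone receptor were higher on average in MMP13-high tumors without passing the test. SPP1 encodes osteopontin, a phosphoprotein of bone matrix to which osteoclasts attach. It was 12.15, 12.14, 12.09, 11.83 and 11.23 in the MMP13-high tumors and 10.63, 11.32, 10.45, 9.91 and 10.61 in the MMP13-low tumors. The difference was 1.30 ± 0.26 (adjusted p = 0.0857), with an overlap of tumors 13 and 14 alone. Among the tumors between, SPP1 was 11.99, 10.81 and 11.60 with low 5′ signal, in order of falling MMP13, and 9.92 and 10.37 with full 5′ signal. SPP1 was therefore lower with full 5′ signal there, opposite in direction to the mean differences of the 12 genes. The tumors between with full 5′ signal are also those with the lower MMP13, so the 2 cannot be told apart there. Its slope on MMP13 over 15 tumors with the 5′ class was 0.23 ± 0.04 (adjusted p = 0.2), with 0.28 ± 0.06 among tumors with full and 0.16 ± 0.06 among those with low 5′ signal.

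PTH1R, the receptor through which parathyroid hormone and PTHLH act on osteoblasts, was 8.91, 9.33, 9.10, 10.56 and 10.84 in the MMP13-high tumors and 8.48, 7.86, 9.73, 4.89 and 4.74 in the MMP13-low tumors. The difference was 2.61 ± 0.96 (adjusted p = 0.352). Tumors 5 and 8, with the least MMP13, also had the least PTH1R, whereas tumor 1 was within the range of the MMP13-high tumors. In the 5 tumors between, in order of falling MMP13, it was 9.02, 8.74, 7.30, 6.16 and 5.91, which is the same order. The last 2 of these are the tumors with full 5′ signal. Its slope with the 5′ class was 0.45 ± 0.14 (adjusted p = 0.34). PTHLH, the ligand, differed by -0.57 ± 0.61, or by -0.17 without tumor 5.

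Of 14 bone matrix and osteoblast genes 0 passed, 12 differences were positive (2910 of 6539 over all genes) and the median was 0.34 (0.06 without tumor 5). ALPL, alkaline phosphatase of mineralizing osteoblasts, differed by 0.10 ± 0.98, with 8.79 and 7.84 in MMP13-low tumors 1 and 12 as the highest values of the 10 tumors. BGLAP, osteocalcin, differed by -0.49 ± 0.31, COL1A1 by 0.52 ± 0.79 and COL1A2 by 0.14 ± 0.32 (adjusted p of 0.665 to 0.931). Without tumor 5 the differences were -0.40 for ALPL, -0.74 for BGLAP, -0.28 for COL1A1 and -0.19 for COL1A2. WIF1, a secreted Wnt inhibitor made by osteoblasts, was 13.24, 10.95, 13.15, 11.62 and 11.88 in the MMP13-high tumors and 11.48, 7.23, 11.49, 9.19 and 4.09 in the MMP13-low tumors (3.47 ± 1.32, adjusted p = 0.367). The 9 genes of cartilage and hypertrophic cartilage had a median of -0.09 and the 4 of osteocytes 0.29 (-0.17 and 0.54 without tumor 5), with 0 passing in either. Over the whole list of 26 measured genes tied to MMP13, 0 passed. At an unadjusted p under 0.05, 4 were higher and 0 lower (532 and 330 of 6539 over all genes). Of the 26 differences 18 were positive (2910 of 6539 over all genes).

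The osteoclast genes differed from the 12 genes in how they lay among the tumors between. Of 12 measured osteoclast genes 0 passed in limma. At an unadjusted p under 0.05, 3 were higher and 0 lower (532 and 330 of 6539 over all genes). The 3 were CLCN7 (0.91 ± 0.16, adjusted p = 0.063), ITGB3 (1.01 ± 0.24, adjusted p = 0.13) and CA2. CLCN7 (0.89, adjusted p = 0.0385) and ITGB3 (1.18, adjusted p = 0.0254) passed without tumor 5, where the groups are also the 5′ classes. In that fit 406 of 23835 probe sets were higher and 54 lower. Of the 12 differences 10 were positive (2910 of 6539 over all genes) and the median was 0.68 (0.59 without tumor 5). The negative ones were CD109 (-0.37) and CSF1R (-0.05). Among the tumors between, 1 of 12, ITGB3 (0.73), was higher with full 5′ signal (8.33%, against 40.5% of all genes), with a median of -0.98. The tumors between with full 5′ signal also had the lower MMP13, so 5′ class and MMP13 cannot be told apart there. The slopes on MMP13 were positive in 12 of 12 when the 5′ class was in the fit (57.1% of all genes), in 12 of 12 within the tumors with full and in 11 of 12 within those with low 5′ signal. Over all genes the slopes were positive in 3833 of 6539 within the first and in 3430 within the second. These genes share samples and cells, so their number is no number of replicates.

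ATP6V0D2, a subunit of the osteoclast proton pump, was 9.94, 7.98, 8.98, 6.30 and 8.14 in the MMP13-high tumors and 8.85, 7.59, 6.80, 3.69 and 3.90 in the MMP13-low tumors. The difference was 2.10 ± 1.07 (adjusted p = 0.554), and the 2 tumors with the least MMP13 were far below the rest. In the tumors between it was 10.14, 7.12 and 10.22 with low and 6.14 and 3.995 with full 5′ signal. Its slope was 0.62 ± 0.14 among tumors with full and 0.63 ± 0.19 among tumors with low 5′ signal. The slope was thus alike in both classes, and its adjusted p with the class in the fit was 0.2. MMP9, the gelatinase of osteoclasts, was 12.68, 11.001, 12.46, 10.46 and 12.12 against 12.20, 11.42, 11.27, 7.48 and 8.04 (1.67 ± 0.95, adjusted p = 0.619). Without tumor 5 the difference of MMP9 was 1.01 (adjusted p = 0.664). Tumors 12, 14 and 1 were within the range of the MMP13-high tumors, and tumors 5 and 8 were not. MMP9 in the tumors between was 12.98, 10.47 and 12.87 with low and 9.49 and 6.31 with full 5′ signal.

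CTSK, cathepsin K, was 11.14 to 12.68 in the MMP13-high tumors and 9.34 in tumor 5 and 11.48 to 12.28 in the other MMP13-low tumors (0.61 ± 0.55, adjusted p = 0.788). Without tumor 5 its difference was 0.10. CA2, carbonic anhydrase of acid secretion, was 7.49 to 8.52 in the MMP13-high tumors and 7.88, 5.85, 5.85, 3.83 and 8.24 in the MMP13-low tumors (1.76 ± 0.74, adjusted p = 0.435), and without tumor 5 the difference was 1.13 (adjusted p = 0.392). CD68, a lysosomal protein of macrophages and osteoclasts, differed by 1.21 ± 0.73 (0.66 without tumor 5) and had a slope of 0.40 ± 0.08 with the 5′ class (adjusted p = 0.2). It stood apart from the macrophage and myeloid list as a whole, of which 5 of 21 differences were positive (2910 of 6539 over all genes). That list had a median of -0.23 and 0 passing.

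**Figure D4:**
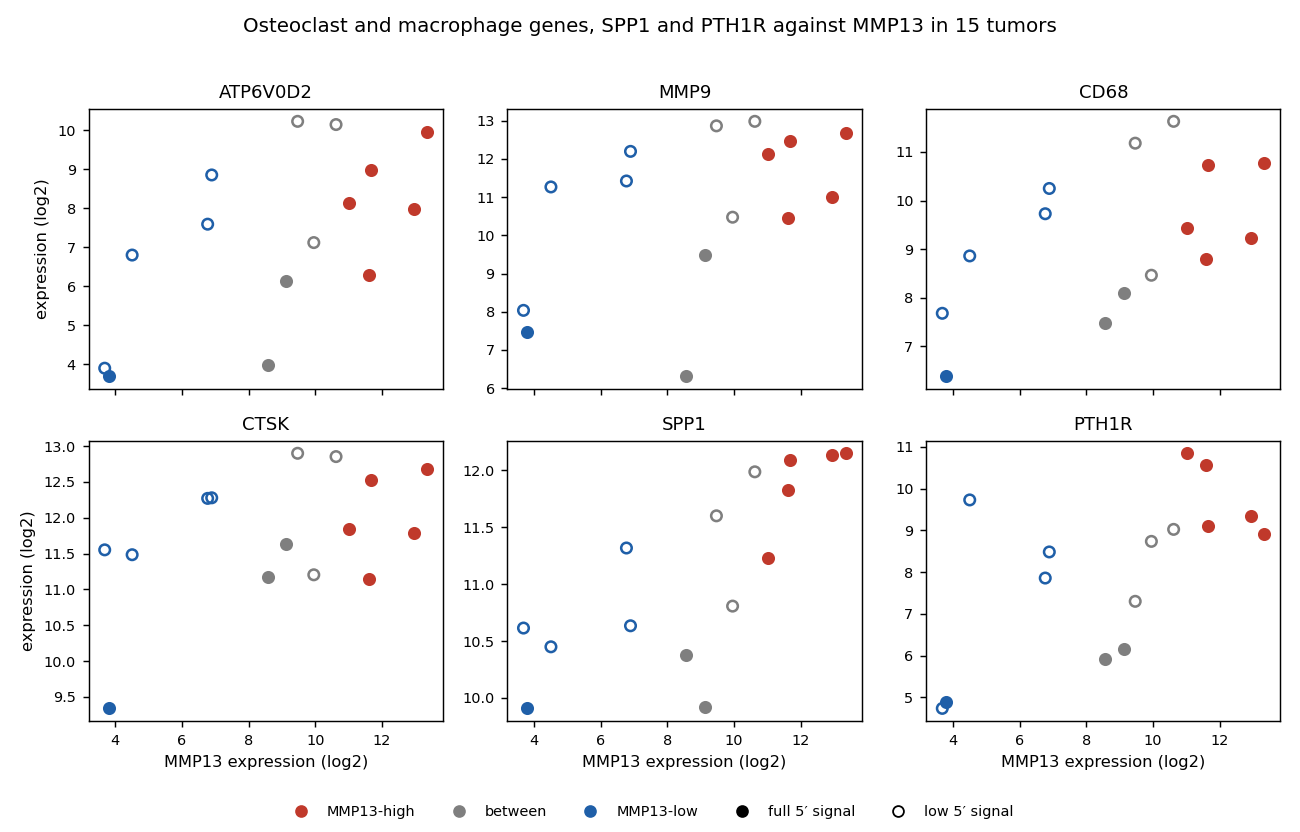
Expression (log2, y axis) of ATP6V0D2, MMP9, CD68, CTSK, SPP1 and PTH1R against MMP13 (log2, x axis), each point 1 of 15 tumors, with filled and open points for full and low 5′ signal. In tumors 5 and 8, at the left, MMP9 was 7.48 and 8.04 and ATP6V0D2 3.69 and 3.90, and within the tumors between the open points lie above the filled ones for MMP9.

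Matrix genes differed in both directions. Of 29 fibrillar collagens and matrix genes 0 passed, 13 differences were positive and the median was -0.04 (0.01 without tumor 5), equal to that of all genes in the comparison with tumor 5. BGN, biglycan, was 5.85, 6.92, 10.78, 9.94 and 10.61 in the MMP13-high tumors and 4.69 to 5.23 in the MMP13-low tumors (3.90 ± 0.92, adjusted p = 0.131). Its groups did not overlap, but the 2 tumors with the most MMP13 had the least BGN of the MMP13-high tumors. Tumors 6 and 15 also had the highest 5′ index (0.73 and 0.74) and Dap signal (6.34 and 7.96) of the MMP13-high tumors. In the other 3 the index was -0.31 to -0.14 and Dap 3.83 to 4.93. BGN in the tumors between was 6.20 and 5.88 with full and 4.57 to 4.70 with low 5′ signal. The part of these control values in BGN was not tested. COL6A1, a chain of microfibrillar collagen VI, was 7.81 to 10.30 against 5.69 to 7.70 (2.51 ± 0.53, adjusted p = 0.0963), with tumor 5 the highest of the MMP13-low tumors. Without tumor 5 it passed, at 2.83 (adjusted p = 0.0256). A second, dimmer probe set of COL6A1 differed by -0.16 ± 0.22 with tumor 5 in the comparison. FBLN2, fibulin 2, was 6.39 to 8.03 in the MMP13-high tumors and 7.05, 10.92, 8.99, 9.95 and 11.003 in the MMP13-low tumors (-2.23 ± 0.70, adjusted p = 0.246).

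Of 9 collagen processing genes 1 passed, P4HA1, and the median was -0.19 (-0.57 without tumor 5). SERPINH1, the collagen chaperone, differed by 1.16 ± 0.44 (adjusted p = 0.364). Of 17 genes of ER stress and protein folding 0 passed and 6 were higher at an unadjusted p under 0.05 (532 of 6539 over all genes). The median was 0.20 (0.13 without tumor 5). HSPA5, the ER chaperone BiP, was 10.05, 11.12, 10.75, 10.82 and 9.65 in the MMP13-high tumors and 7.35, 5.74, 5.70, 10.16 and 6.65 in the MMP13-low tumors (3.36 ± 0.78, adjusted p = 0.125). Tumor 5 was within the range of the MMP13-high tumors, and the other 4 MMP13-low tumors, with low 5′ signal, were below it. PDIA3, a disulfide isomerase of the ER, was 7.35 to 9.22 in the MMP13-high tumors, with 8.34 in tumor 5 and 3.98 to 5.60 in the other MMP13-low tumors (2.94 ± 0.80, adjusted p = 0.178). Without tumor 5 HSPA5 differed by 4.12 (adjusted p = 0.00211) and PDIA3 by 3.70 (adjusted p = 0.00484). In the tumors between HSPA5 was 10.48 and 11.14 with full and 6.65 to 7.52 with low 5′ signal, so these genes lay with the 5′ class in both sets of tumors.

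Of 30 hypoxia and glycolysis genes 1 passed, P4HA1, which is also in this list. Of the differences 26 were positive (2910 of 6539 over all genes), with a median of 0.39. VEGFA, the vessel growth factor, was 4.23 in tumor 6, 6.08 to 7.82 in the other MMP13-high tumors, 5.39 in tumor 5 and 3.49 to 4.37 in the other MMP13-low tumors (2.28 ± 0.64, adjusted p = 0.191). PKM, pyruvate kinase, differed by 2.17 ± 0.62 (adjusted p = 0.199). The second probe sets of VEGFA (0.18 ± 0.12) and PKM (-0.01 ± 0.14) showed no such difference, with means of 3.59 and 3.88 over 23 samples. Of 17 cell cycle genes 0 passed, and 6 were higher and 0 lower at an unadjusted p under 0.05 (532 and 330 of 6539 over all genes). Of their differences 16 were positive (2910 of 6539 over all genes), and the median was 0.57 (0.18 without tumor 5). MCM7, of the replicative helicase, was 6.25, 6.21, 7.35, 8.35 and 7.98 against 4.9996 to 5.75 (1.93 ± 0.42, adjusted p = 0.102), and its 3 other probe sets ranged from -0.01 to 1.72. KIF11, a mitotic kinesin, was 5.82 to 7.82 in the MMP13-high tumors and 7.32, 3.10, 5.47, 4.25 and 4.97 in the MMP13-low tumors (2.05 ± 0.71, adjusted p = 0.305). The slopes of the cell cycle list on MMP13 were positive in 17 of 17 genes among tumors with full and in 9 of 17 among tumors with low 5′ signal, against 3833 and 3430 of 6539 over all genes.

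In limma 0 genes passed as lower in MMP13-high tumors, with 330 at an unadjusted p under 0.05. Of the 10 genes with a negative difference and the smallest p, all had values in the MMP13-high tumors below those of every MMP13-low tumor. So did 41 of all 6539 genes, and the choice by the smallest p makes this likely, so it is no separate support. They were TTLL7, LOC481033, MRPL23, NDUFS3, CTDNEP1, N4BP2L1, ARMH4, NOVA1, FAXC and RBPJ. TTLL7, a ligase that adds glutamate to tubulin, was 3.24 to 3.88 against 4.35 to 4.73 (-0.91 ± 0.15, adjusted p = 0.0597). RBPJ, the DNA-binding factor of Notch signalling, was 4.90, 5.56, 5.66, 5.06 and 4.51 in the MMP13-high tumors and 6.87, 8.22, 7.55, 6.41 and 6.32 in the MMP13-low tumors (-1.94 ± 0.38, adjusted p = 0.0807). RBPJ in the tumors between was 6.42, 5.90 and 6.005 with low and 7.23 and 5.75 with full 5′ signal, values that overlap. FAXC differed by -1.80 ± 0.37 (adjusted p = 0.0935). Without tumor 5, 8 of these 10 genes passed, all but N4BP2L1 and NOVA1, among them RBPJ with -2.10 (adjusted p = 0.0325). Over all 6539 genes 23 passed as lower in that fit. The 10 were chosen in tumors that this fit shares, so their passing is no separate support. Without tumor 5 the MMP13 groups are also the 5′ classes and cannot be told apart from them.

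NDUFS3, a subunit of respiratory complex I, was 8.03, 8.45, 7.77, 8.27 and 7.57 against 9.30, 8.83, 9.48, 8.66 and 8.95 (-1.03 ± 0.21, adjusted p = 0.0857). Of 43 respiratory chain genes 0 passed, and 1 was higher and 6 lower at an unadjusted p under 0.05 (532 and 330 of 6539 over all genes). Of their differences 34 were negative (3629 of 6539 over all genes), and the median was -0.28. Among the tumors between, 5 of 43 were higher with full 5′ signal (11.6%, against 40.5% of all genes), with a median of -0.40. These genes therefore differed in the same direction between the 5′ classes as between the MMP13 groups. The 55 cytosolic ribosomal protein genes had a median of -0.06 (-0.16 without tumor 5).

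Inflammatory genes were high in single tumors of both groups. Of 21 cytokines and chemokines 0 passed in either direction and 0 had an unadjusted p under 0.05, with a median of 0.09 (0.60 without tumor 5). IL6 was 11.93 in tumor 15 and 3.29 to 5.58 in the other MMP13-high tumors, and 12.29 in tumor 5, 6.94 in tumor 8 and 3.37 to 3.93 in the other MMP13-low tumors. IL1B, an inducer of MMP13 in joint cells, was 8.05 in tumor 15, 6.86 in tumor 5 and 3.12 to 3.47 in the other 8 tumors. CXCL8, the neutrophil chemokine, was 12.76 in tumor 15 and 12.23 in tumor 5. The tumors with the second highest and the second lowest MMP13 were thus the 2 with the most IL6, IL1B and CXCL8, and the group differences were -0.14 ± 2.09, 0.16 ± 1.06 and 0.67 ± 1.86, or 1.44, 0.85 and 1.88 without tumor 5.

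Markers of other cell types gave 0 genes past the threshold in any list. The median difference was -0.43 for 6 genes of MHC class II presentation, with 6 of 6 negative, -0.16 for 8 endothelial genes, -0.29 for 12 pericyte and smooth muscle genes, -0.01 for 9 adipocyte genes and 0.01 for 10 lymphocyte genes. It was -0.08 for 4 neutrophil, 0.03 for 6 epithelial and 0.06 for 3 erythroid genes. Without tumor 5 the medians were -0.20 for MHC class II, -0.02 for endothelium, -0.02 for pericytes and smooth muscle, -0.02 for adipocytes, -0.03 for lymphocytes, -0.003 for epithelium and 0.11 for erythroid cells. Single markers passed as higher in limma without tumor 5, where the groups are also the 5′ classes. Among them were CD36 (1.88, adjusted p = 0.0208) and LPL (1.93, adjusted p = 0.0495) of the adipocyte list and TFRC (0.91, adjusted p = 0.0312) of the erythroid list. Other members of these lists did not follow them. ADIPOQ (-0.67) and CIDEA (-0.70) of adipocytes and GATA1 (-0.16) of erythroid cells were negative in that fit, and CA1 of erythroid cells was 0.11. The Wnt pathway (14 genes) had a median of -0.04, the TGF-beta and BMP pathway (20 genes) 0.04, the interferon response (9 genes) 0.20 and the 16 genes the study named for canine osteosarcoma 0.13, each with 0 passing. Without tumor 5 these medians were -0.09, 0.01, 0.15 and 0.01. The last list was chosen by the study on these samples.

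Skeletal muscle genes had the most negative median of the lists, at -0.95, with 26 of 29 differences negative (3629 of 6539 over all genes) and 0 passing. MYL2, a light chain of slow muscle and heart myosin, was 12.89 in tumor 5 and 4.45 to 6.61 in the other 9 tumors (-1.69 ± 1.47, adjusted p = 0.78). TNNT1, troponin T of slow muscle, was 11.84 in tumor 5 and 3.50 to 4.70 in the others. Without tumor 5 these differences were -0.15 and 0.08. Without tumor 5 the median of the list was -0.05, and with the 5′ index as a covariate it was -4.17. Adipocyte genes were also highest in tumor 5, with a mean level of 7.86 against 5.04 to 6.18 in the other tumors. The part of muscle and fat tissue in the values of other genes of tumor 5 was not tested.

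**Figure D5:**
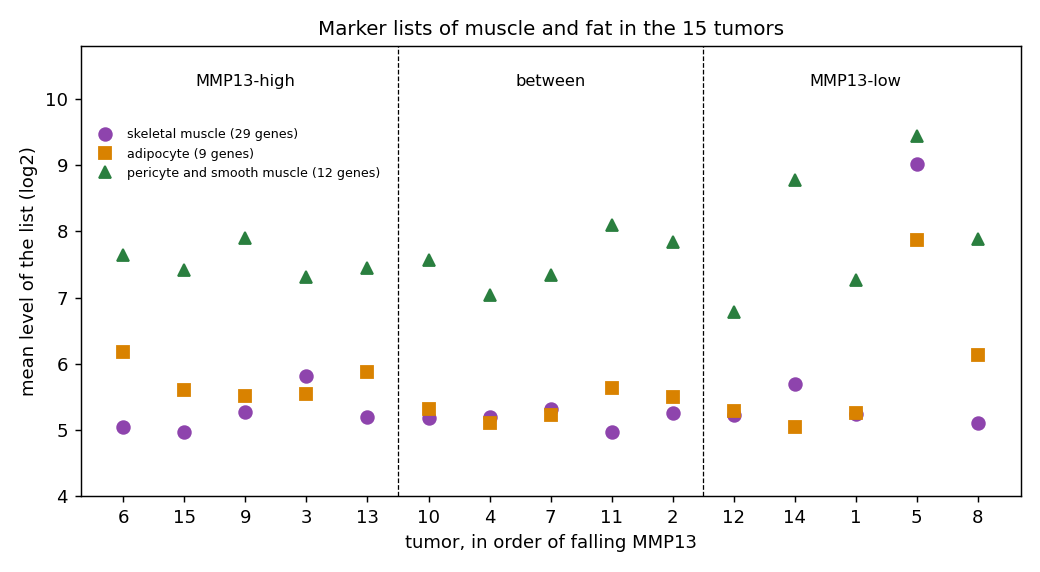
Mean level of the genes of 3 marker lists (log2, y axis) in each of the 15 tumors, ordered by falling MMP13 (x axis, tumor number), with dashed lines between the MMP13 groups. Tumor 5 holds the highest point of each list, at 9.02 for skeletal muscle, 7.86 for adipocyte and 9.44 for pericyte and smooth muscle genes.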

How the data were processed

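Tumor RNA was hybridized to Affymetrix canine genome arrays. The authors used robust multi-array averaging (RMA), which includes quantile normalization, and deposited log2 expression values (2.52 to 14.2, 23913 probe sets, 0 missing values). The versions of the software are not given in the sources used here. RMA compresses differences of dim probe sets, and precision depends on how many arrays there are. Columns of other samples in the table numbered 0.

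Samples were grouped by the labels and tumors ranked by MMP13, which has 1 probe set with that symbol. The 77 control probe sets and MMP13 were left out, which left 23835. The platform annotation, with symbols updated through RefSeq gene IDs, gave 1 symbol for 10548, several for 138 and none for 13149. For each of 6539 genes the probe set brightest on average over 23 samples was used. MMP13-high and MMP13-low tumors were compared with limma 3.58.1 in R 4.3.3 (lmFit, eBayes, two-sided, Benjamini-Hochberg over all probe sets, threshold 0.05), the test the study's methods name, after a test on simulated data. Control probe sets were compared by an exact permutation test.

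Named genes were up to 15 per direction with the largest differences among those that passed, the 10 with the smallest p where fewer than 10 passed, and of each of 31 gene lists the members that passed, the 4 with the largest differences and all genes tied to MMP13. Of 851 listed symbols 428 were measured. The 5′ index, its border at 1.5, the groups and the lists were chosen with earlier results of these data known. Alternatives were the threshold, the 5′ index or class or the Dap spike as covariate, MMP13 as a continuous measure, normalization, a filter at a mean of 5, the variance model, array weights and leaving out each tumor. Gene sequences are not printed, since no sequence file was used here.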

Additional observations from a re-analysis of the deposited data

Results flagged for a closer look

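Single tumors lay far from the other 4 of their group in 36 of 298 groups of values (12.1%), by a gap that chance gives in about 1 in 20 groups. Tumor 5 accounted for 19 of them, tumor 15 for 7, tumors 3 and 14 for 3 each, tumor 6 for 2 and tumors 9 and 13 for 1 each.

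In tumor 5, muscle genes were above the other MMP13-low tumors, with MYL2 at 12.89, TNNT1 at 11.84, DES (desmin) at 10.97, MYBPC1 at 10.78, TCAP at 10.25 and SYNPO2 at 8.81, as were the fat genes LPL (10.13) and CD36 (9.23). Genes of bone and bone resorption were below, with COL1A1 at 9.58, COL1A2 at 12.01 and CTSK at 9.34. IL1B was 6.86, IL1A 4.82, CD44 8.06, CALR 7.78, YARS1 6.38, RPS24 4.28 and the Dap control 8.17, all above the others. CTDNEP1 (7.995) was below them.

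In tumor 15, IL6 was 11.93, CSF2 8.95, IL1B 8.05, IL1A 7.91, PTHLH 7.08 and ARMH4 4.204, each the highest of the MMP13-high tumors, and ETV5 was 6.59, the lowest of them. Tumor 3 had MYL2 at 6.61, TNNT1 at 4.70 above, and P3H4 at 7.94 below, the other MMP13-high tumors. Tumor 14 had MMP3 at 7.81, CD3D at 6.33 and FGFR1 at 6.19, and tumor 6 had ADIPOQ at 5.71 and CILP at 4.44, all above the rest of their group. Tumor 9 had MUC1 at 6.89, also above, and tumor 13 had CALR at 6.59, below the other MMP13-high tumors.

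Outside the tumors, MMP13 was 7.09 in cell line 1, above the highest normal sample (4.37).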

How the results depend on the processing

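The number of probe sets higher and lower in MMP13-high tumors (33 and 0 at an adjusted p under 0.05) depended on the setting. All 33 differences stayed positive in every fit of groups but the added one below and the filter on dim probe sets, which tested 30 of them. The 33 were chosen by their difference in the same tumors, so that choice largely set these signs, and they are no separate support. The counts were 3 and 0 at a threshold of 0.01, 58 and 6 with all 15 tumors in 3 groups, 21 and 224 with the 5′ index and 33 and 412 with the 5′ class as covariate, 55 and 5 with the Dap class, 1 and 0 with MMP13 as a continuous measure, 33 and 2 with arrays centred on their median, 34 and 1 after repeated quantile normalization, 72 and 4 with the filter on dim probe sets, 75 and 5 with trend and robust and 287 and 27 with array weights. Leaving out 1 tumor gave 0 to 406 higher and 0 to 54 lower: 0 higher without tumor 13 or tumor 1, 4 without tumor 8, 6 without tumor 9, 3 or 14, 11 without tumor 12, 43 without tumor 6, 57 without tumor 15 and 406 without tumor 5. Settings added after seeing the data gave 0 and 0 with the 5′ index and tumor 5 left out (31 of 33 positive), 0 and 0 with MMP13 continuous and the 5′ class, and 0 and 2 within tumors with full and 0 and 0 within those with low 5′ signal. In that last fit the slopes of 6 genes that had passed were below 0, at -0.0319 (GJA1), -0.0248 (YARS1), -0.0351 (CCNG2), -0.0266 (ATE1), -0.000209 (KCNE3) and -0.0636 (TAF2). With the 5′ class CD36 turned to -3.09 (adjusted p = 0.0158) and LPL to -3.50 (adjusted p = 0.0308), and that fit sets the MMP13-high tumors against tumor 5, where both were high. CD36 and LPL passed as higher in limma when tumor 5 was left out with no covariate, by 1.88 (adjusted p = 0.0208) and 1.93 (adjusted p = 0.0495). For other changes of a call the cause was not tested. The fits within tumors of full or of low 5′ signal by group were not run, since each lacked 2 tumors in a group, and no second MMP13 probe set could replace the first. No paired analysis was possible because the labels give the tumors no numbers shared between the groups. Dim probe sets limit what can be seen, and 5 tumors a group limit the precision.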
